A study of Homo sapiens with 7 samples.

Results

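Near full-length LTR12C copies were defined as annotated copies of the repeat LTR12C that span at least 1200 bp from start to end, and 2342 of the 712115 annotated repeat copies in the deposited tables, or of 2740 LTR12C copies, met this rule. LTR12C is a long terminal repeat of the HERV-9 group of human endogenous retroviruses, and most of its copies are solitary repeats left after the internal viral genes were lost by recombination. A long terminal repeat carries the promoter and the polyadenylation signal of the virus, and DNA methylation is among the marks that keep such promoters silent in somatic cells. 5-Aza-CdR (decitabine) is a nucleoside analogue that is built into DNA and traps DNA methyltransferases, so that methylation is lost as cells divide.

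Double-stranded RNA was sequenced from HCT116, an established human colon carcinoma cell line. Lysates were digested with RNase T1, which cuts single-stranded RNA, pulled down with J2, an antibody to double-stranded RNA, and made into libraries with a small-RNA kit. Of 7 libraries, 2 were from cells labelled 5-Aza-CdR, 2 from cells labelled Combination, 1 from cells labelled Vc and 2 from cells labelled PBS, the solvent control. The labels give 5-Aza-CdR at 0.3 µM, a change of medium after 24 h and day 5. They do not define the other agents, which are known from the published study as vitamin C (Vc) and vitamin C with 5-Aza-CdR (Combination). The libraries came as a first set (5-Aza-CdR, Combination and PBS) and a second set (5-Aza-CdR, Combination, Vc and PBS), each with its own deposited workbook. The second is described as having duplicate reads marked, and nothing says so of the first. The labels do not say whether the libraries of a group came from separate cultures, so p-values measure only the spread between these libraries.

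Reads assigned to repeat families, used as the depth of a library, numbered 11531 to 23131 in set 1 and 18495 to 32403 in set 2. In set 1 a single HERVE_a-int copy held 58.2% to 80.2% of the reads in the table of individual copies, and this family was at 0 in the family table, which was therefore used as the denominator. Of the near full-length LTR12C copies, 2270 were listed in both sets and were followed across all libraries. They were 1204 to 2782 bp long, with a median of 1435 bp, and together held 94.0% of the LTR12C bases in both sets. Just outside the length rule were chr22:30992666-30993864 (1199 bp, no read in any library) and chrX:134059525-134060722 (1198 bp, 1 read, in 5-Aza-CdR of set 2). Just inside it were chr10:26044746-26045949 (1204 bp) and chr4:6674268-6675474 (1207 bp). All positions are on hg19 and are counted from 1. The sources used here do not give the rule by which a read matching several near-identical copies was placed, and a read counted at one copy may have come from another.

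Near full-length LTR12C copies gave a far larger part of the double-stranded RNA reads in libraries from cells given 5-Aza-CdR than in PBS libraries. In set 1 they held 1723 reads in 5-Aza-CdR and 2784 in Combination, against 263 in PBS, which were 14.9%, 19.4% and 1.14% of the family reads. In set 2 they held 4881 reads in 5-Aza-CdR, 8272 in Combination and 753 in Vc, against 804 in PBS, which were 20.7%, 25.5%, 4.07% and 4.13%. Every 5-Aza-CdR and Combination library lay above every PBS and Vc library, and the PBS libraries themselves differed between the sets.

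**Figure D1:**
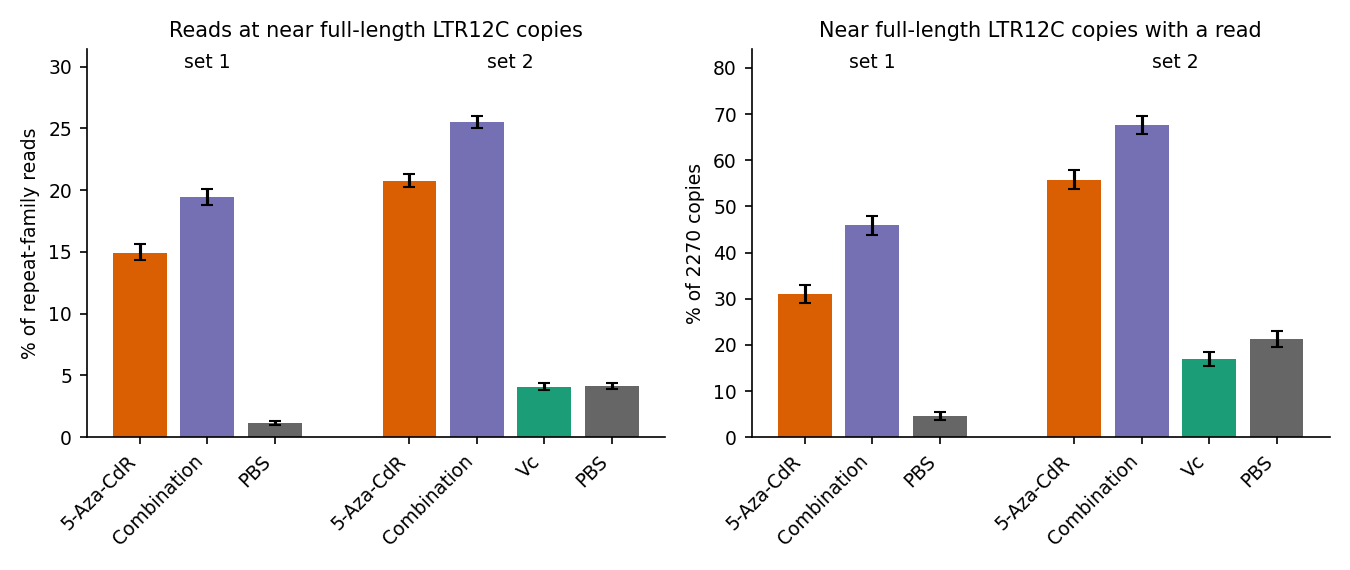
Share of repeat-family reads at near full-length LTR12C copies (left, %) and share of the 2270 copies with at least 1 read (right, %), by library and set, with 95% Wilson intervals that cover counting error only. The 5-Aza-CdR and Combination bars (14.9% to 25.5% of reads) stand above the Vc and PBS bars (1.14% to 4.13%) in both sets.

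Per family read, the summed reads in 5-Aza-CdR were 13.1 times those in PBS in set 1 (95% interval 11.5 to 15.0) and 5.02 times in set 2 (4.66 to 5.41). The same ratio for Combination was 17.1 (15.1 to 19.5) in set 1 and 6.18 (5.74 to 6.65) in set 2. Both comparisons share the PBS libraries. The intervals are exact binomial intervals. They cover counting error only, because PCR copies of one molecule could not be told from separate molecules, and the gap between the sets was wider than the intervals. Dividing by tRNA reads, which set 1 alone provides, gave ratios of 39.9 for 5-Aza-CdR and 154 for Combination. The tRNA reads themselves numbered 38200 in 5-Aza-CdR and 15946 in Combination, against 232558 in PBS. Ratios per tRNA read therefore also carry this fall, in 1 library per group. Dividing by all reads of the table of copies gave 22.4 and 27.8 in set 1.

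Combination exceeded 5-Aza-CdR by less than either exceeded PBS, at 1.30 times (1.22 to 1.38) in set 1 and 1.23 times (1.19 to 1.28) in set 2. Per tRNA read the set 1 ratio was 3.87 (3.64 to 4.11). Per family read, the ratio in set 1 and set 2 was 1.34 and 1.37 at other LTR12 repeats. It was 1.38 and 1.12 at truncated LTR12C copies and 1.16 and 1.18 at HERV-9 internal regions. An excess of this size was thus also seen outside the near full-length copies. Copy by copy, 438 of 2270 were higher in Combination than in 5-Aza-CdR in both sets and 152 were lower in both. The same counts were 24 and 11 among truncated LTR12C copies and 755 and 702 among other repeats. With Vc, the summed reads were 0.985 times those of PBS (0.891 to 1.09), and 339 copies were higher and 354 lower. Among other repeats 9050 were higher and 8603 lower. Vc is a single library, so its difference from PBS has no replicate check of its own.

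The reads were spread over many copies. At least 1 read was found at 704 copies in 5-Aza-CdR (31% of 2270) and 1043 in Combination (45.9%), against 104 in PBS (4.58%) in set 1. In set 2 the counts were 1267 in 5-Aza-CdR (55.8%), 1537 in Combination (67.7%) and 383 in Vc (16.9%), against 481 in PBS (21.2%). When every library was thinned by calculation to 11531 family reads, 704 copies in 5-Aza-CdR and 930 in Combination, against 66.9 in PBS, were expected to keep a read in set 1, and 939, 1055 and 270, against 322 in PBS, in set 2. At 18495 reads of the table of copies the same expectation was 429, 569 and 26.0 in set 1 and 1157, 1280, 383 and 463.5 in set 2, in the same order of groups. In set 1 most reads of that table lay at the single HERVE_a-int copy. This thinning therefore cut PBS of set 1, from 133154 reads, far more than 5-Aza-CdR, from 39027, and widened the gap between them. The median of the copies with a read was 1 read in every set 1 library, and 2 in 5-Aza-CdR, 3 in Combination, 1 in Vc and 1 in PBS in set 2.

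The reads were most concentrated in PBS of set 1 and least in Combination of set 2. The 10 copies with most reads held 29.4% of the reads of 5-Aza-CdR and 16.7% of Combination, against 43.7% of PBS, in set 1. In set 2 they held 12.9% of 5-Aza-CdR, 11% of Combination and 28.3% of Vc, against 20.4% of PBS. The number of copies needed to reach 50% of the reads was 87 in 5-Aza-CdR and 152 in Combination, against 14 in PBS, in set 1. It was 189, 212 and 59, against 105 in PBS, in set 2. These numbers move with the reads a library holds, which were fewest in the PBS and Vc libraries.

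Most near full-length copies had no read without 5-Aza-CdR. No PBS or Vc library had a read at 1528 copies (67.3%), of which 345 had none in any library and 1183 (52.1%) had reads in 5-Aza-CdR or Combination libraries alone. Among 696753 copies of other repeats, 96.8% had no PBS or Vc read and 3.28% had reads in 5-Aza-CdR or Combination libraries alone. The latter share was 30.8% of truncated LTR12C copies and 23.5% of other LTR12 repeats. All these shares also depend on how often a copy was read at all. No library had a read at 93.5% of other repeats, 69.7% of other LTR12 repeats and 53.4% of truncated copies, against 15.2% of near full-length copies. A read in both 5-Aza-CdR libraries and no PBS or Vc read was found at 256 copies (11.3%), and in both Combination libraries at 464 (20.4%), where other repeats had 0.0567% and 0.0835%. At 159 copies (7.0%) all 4 of these libraries had a read while PBS and Vc had none. The same pattern was found at 6 of 386 truncated LTR12C copies (1.55%), 19 of 2725 copies of other LTR12 repeats (0.697%) and 58 of 696753 copies of other repeats. In the opposite direction, 42 copies (1.85%) had reads in PBS or Vc libraries only, against the 1183 with reads in 5-Aza-CdR or Combination alone. Among other repeats, most of them unread, these counts were 15135 (2.17%) and 22874, so the similar shares of all copies do not make the classes alike. Of the near full-length copies 45 had a read in both PBS libraries and 17 had a read in all 7 libraries. A library with no read at a copy allows up to 3 reads there.

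Per family read, 502 copies were higher in 5-Aza-CdR than in PBS in both sets and 13 were lower in both. For Combination 802 were higher in both sets and 9 lower. Among other repeats the same counts were 625 higher and 762 lower for 5-Aza-CdR, and 844 higher and 770 lower for Combination, of 696753 copies. The share of copies read in both sets was larger in the drug libraries, which also held more reads at these copies. Of the copies with a read in set 1, 536 of 704 (76.1%) had one in set 2 for 5-Aza-CdR and 855 of 1043 (82.0%) for Combination, against 45 of 104 (43.3%) for PBS. As shares of the set 2 copies these were 42.3%, 55.6% and 9.36%. Across the 2270 copies, which share depth and length within a library, the rank correlation of reads between sets was 0.38 for 5-Aza-CdR, 0.49 for Combination and 0.13 for PBS.

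Truncated LTR12C copies, other LTR12 repeats and the internal region of HERV-9 were the most closely related sequences in the tables. Summed reads of truncated copies were 14.5 times (7.18 to 33.1) and 4.38 times (3.20 to 6.12) those of PBS in 5-Aza-CdR of set 1 and set 2. For Combination they were 19.9 times (10.1 to 44.7) and 4.89 times (3.61 to 6.77). These intervals contain the ratios of the near full-length copies, and they do not show that the classes respond alike.

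Other LTR12 repeats and HERV-9 internal regions had lower ratios. Other LTR12 repeats reached 2.52 and 2.65 times PBS in 5-Aza-CdR of set 1 and set 2, and 3.38 and 3.64 times in Combination. HERV-9 internal regions reached 1.44 and 2.48 times in 5-Aza-CdR and 1.67 and 2.93 times in Combination. For each read at other LTR12 repeats, near full-length LTR12C copies had 7.12 and 9.16 reads in 5-Aza-CdR and 6.89 and 8.21 in Combination, against 1.36 and 4.84 in PBS, so the groups did not overlap. The log2 difference from PBS was 1.65 for 5-Aza-CdR and 1.55 for Combination (exact permutation test, two-sided p = 0.33, n = 2 each, the smallest p that 2 against 2 allows). Against HERV-9 internal reads it was 2.10 and 2.22, with the same p of 0.33 by the exact permutation test. Against truncated copies it was 0.03 and 0.06 (exact permutation p = 1).

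**Figure D2:**
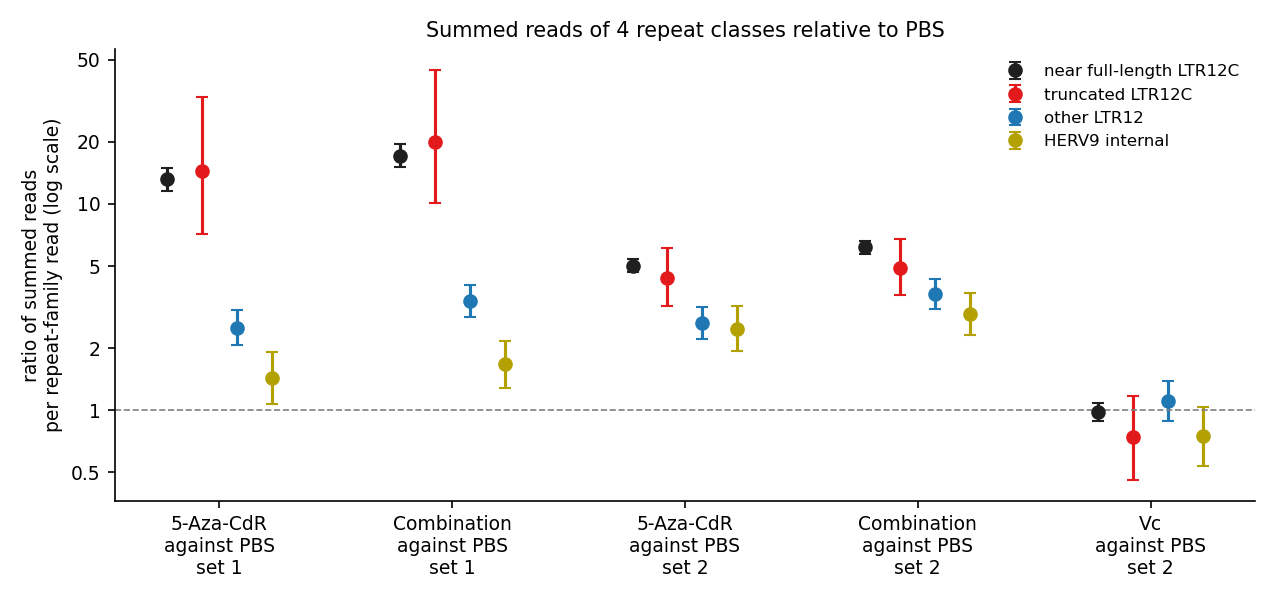
Ratio to PBS of summed reads per repeat-family read (log scale) for near full-length LTR12C, truncated LTR12C, other LTR12 repeats and HERV-9 internal regions, by comparison and set, with 95% intervals that cover counting error only. Near full-length and truncated LTR12C lie together above the other classes for 5-Aza-CdR and Combination, and near full-length LTR12C is at 0.985 for Vc.

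Within LTR12C, near full-length copies held nearly all reads in every library. Their share was 96.4% and 95.1% in 5-Aza-CdR, 96.2% and 95.6% in Combination and 95.8% in Vc, against 96.7% and 94.5% in PBS. The difference from PBS was 0.17 percentage points for 5-Aza-CdR and 0.29 for Combination, smaller than the gap between the PBS libraries (exact permutation test, two-sided p = 1 for each, n = 2 each). With a share this close to its ceiling and 2 libraries a group, where p cannot go below 0.33, the test shows neither a change nor its absence. Per base, near full-length copies had more reads than truncated ones in every library, at 518 and 1468 reads per 1000 kb in 5-Aza-CdR and 837 and 2487 in Combination, against 79.1 and 241.8 in PBS. Truncated copies had 306 and 1173 in 5-Aza-CdR and 523 and 1805 in Combination, against 42.4 and 221 in PBS. In Vc the densities were 226 for near full-length and 155 for truncated copies.

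Individual copies were tested with edgeR's quasi-likelihood test, with treatment and set as terms and Benjamini-Hochberg adjustment over the 409 repeat copies of any kind whose reads summed to 30 or more. Of the near full-length LTR12C copies 101 reached that minimum and 2169 did not. In 5-Aza-CdR against PBS, 64 of the 101 passed an adjusted p of 0.05 as higher and 0 as lower, where 23% of the 409 copies were higher and 6.36% lower. In Combination against PBS, 82 were higher and 0 lower, where 26.4% of the 409 were higher and 7.09% lower. Many of the 101 reached the minimum through their 5-Aza-CdR and Combination reads. These counts, and the log2 changes of the tested copies given below, thus describe the copies tested and are no support for a response of the class.

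Of the 101 copies, 37 had 0 PBS reads, 59 had 1 to 9 and 5 had 10 or more. Both 5-Aza-CdR libraries were above both PBS libraries at 86 copies and both Combination libraries at 92, and at 0 copies were they both below. Over all 409 loci 29.3% and 31.3% lay above in this way, and 11.7% and 11% below. The median log2 change of the 101 was 4.17 in 5-Aza-CdR and 4.50 in Combination, against 0.32 and 0.12 over all 409. With the 37 copies set at the bound that 3 reads per PBS library allow, the medians were 2.63 and 2.89. Relaxing the minimum to 10 reads, with 571 near full-length copies tested, gave medians of 3.67 in 5-Aza-CdR and 4.32 in Combination. At a minimum of 1 read, with 1925 tested, they were 2.17 and 2.69. Of the 308 other loci tested, 30 were called higher and 26 lower in 5-Aza-CdR, and 26 higher and 29 lower in Combination. The median log2 change of these other loci was -0.29 in 5-Aza-CdR and -0.49 in Combination.

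**Figure D3:**
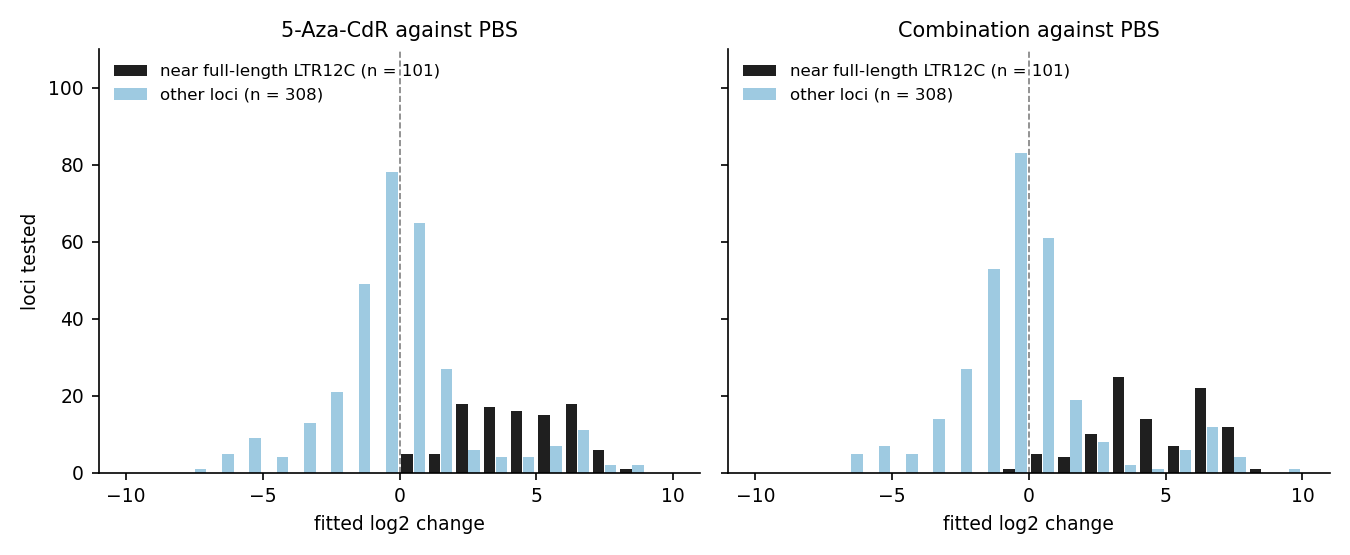
Fitted log2 change (x axis, bins 1 wide) of the 101 near full-length LTR12C copies and the 308 other repeat copies tested (y axis, number of loci), for 5-Aza-CdR against PBS (left) and Combination against PBS (right). The LTR12C copies lie mostly to the right of 0, with medians of 4.17 and 4.50. The other loci centre below 0, with medians of -0.29 and -0.49 and a tail on each side.

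The counts depended on how the libraries were modelled. Without the term for set 0 copies passed in either comparison, although 56 and 63 of the 101 had an unadjusted p under 0.05, where 21.3% and 22% of the 409 loci did. DESeq2 called 10 higher in 5-Aza-CdR and 15 in Combination, where it called 3.42% and 4.4% of the 409. Calls in both comparisons also fell sharply when any 5-Aza-CdR or Combination library, or PBS of set 2, was left out. Such fits leave 1 library in a group, and the read minimum was applied again in each. Fewer of the 101 copies were then tested. The number was 89 and 61 without 5-Aza-CdR of set 1 and set 2, 83 and 33 without Combination of set 1 and set 2, and 96 without PBS of set 2. In that order their median log2 change was 4.10, 4.64, 4.21, 4.63 and 5.77 in 5-Aza-CdR against PBS. In Combination against PBS it was 4.53, 4.79, 4.36, 5.13 and 6.27.

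Combination against 5-Aza-CdR gave 0 calls among the 101 copies in either direction by the same edgeR test, against 0% of the 409 (1 copy with an unadjusted p under 0.05, and 0 calls by DESeq2). The median log2 change was 0.33, against -0.03 over all loci. Leaving out PBS of set 1, which leaves 1 PBS library, gave a few calls both at these copies and at other loci. Those at these copies were all lower in Combination, as were most at other loci. The median change of the 99 near full-length copies then tested was 0.28, against -0.01 over all loci. Vc against PBS also gave 0 calls, against 0% of the 409, with 3 copies at an unadjusted p under 0.05 and 0 calls by DESeq2.

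The copies with most reads are given next in the order of their reads over all libraries. Reads are of 5-Aza-CdR, Combination and PBS in set 1 and then of 5-Aza-CdR, Combination, Vc and PBS in set 2. Fold values of single copies use the effective library sizes of the fit. For 5-Aza-CdR and PBS these were 12677 and 36483 in set 1 and 48147 and 52008 in set 2. Family reads were 11531 and 23131 in set 1 and 23528 and 19450 in set 2. Folds of 5-Aza-CdR over PBS are thus larger here than per family read, the scale of the summed ratios. Copy 1 was chr10:74060187-74061778 (plus strand, 1592 bp), a solitary repeat. It had 1 and 2 reads in 5-Aza-CdR and Combination, against 0 in PBS, in set 1, and 101, 114 and 133 in 5-Aza-CdR, Combination and Vc, against 94 in PBS, in set 2. The copy was thus high in all of set 2 and nearly unread in set 1, and its groups overlapped (log2 change 0.71 ± 0.88 SE in 5-Aza-CdR, edgeR adjusted p = 0.64). In set 2 it alone held 17.7% of the Vc reads and 11.7% of the PBS reads at near full-length copies.

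Copies 2 and 4 were the 3′ and 5′ repeats of a single HERV-9 provirus on the minus strand of chromosome 1, with 4239 bp between them. The 3′ repeat, chr1:175070212-175072001 (1790 bp), had 40 reads in 5-Aza-CdR and 46 in Combination, against 7 in PBS, in set 1. It had 142 and 193 reads, against 0 in PBS and 0 in Vc, in set 2. Both drug groups were above PBS in each set, by 16.4 times (7.29 to 43.5) in 5-Aza-CdR of set 1 and at least 51.1-fold in set 2, on the effective library sizes of the fit and with 3 reads as the floor for a PBS library at 0.

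Its edgeR log2 change was 5.30 ± 0.90 (SE, adjusted p = 2.55e-06) in 5-Aza-CdR and 5.12 ± 0.90 (adjusted p = 3.74e-06) in Combination. The call held in 13 of 15 alternatives for 5-Aza-CdR and 11 of 15 for Combination. The 5′ repeat, chr1:175076241-175078158 (1918 bp), had 6 and 17 reads, against 2 in PBS, in set 1, and 127 and 193, against 1 in PBS and 1 in Vc, in set 2. It also rose in both comparisons, with a log2 change of 5.03 ± 1.08 (adjusted p = 0.000231) in 5-Aza-CdR and 5.40 ± 1.07 (adjusted p = 4.31e-05) in Combination. The HERV-9 internal fragments between the repeats, 3883 bp in all, had 4 and 11 reads, against 0 in PBS, in set 1 and 20 and 47, against 0 in PBS and 0 in Vc, in set 2.

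Copies 3 and 7 had reads in set 1 only. Copy 3, chr18:9296674-9298314 (plus strand, 1641 bp), had 205 reads in 5-Aza-CdR and 136 in Combination, against 34 in PBS, and 0 in every library of set 2. Copy 7, chr7:22129778-22131305 (plus strand, 1528 bp), had 138 and 45, against 7 in PBS, and again 0 in set 2. Copy 3 alone held 11.9% of the near full-length reads of 5-Aza-CdR and 4.89% of those of Combination, against 12.9% of those of PBS, in set 1. Both copies passed the test as higher in 5-Aza-CdR, with log2 changes of 3.98 ± 0.95 (edgeR adjusted p = 0.00127) and 5.59 ± 1.17 (adjusted p = 0.000156). These calls rest on set 1, with 1 library per group. The spread behind their p-values was pooled over all loci tested, so neither copy has a replicate check of its own. Both were called in Combination too, at 2.93 ± 0.92 (adjusted p = 0.00803) and 3.60 ± 1.11 (adjusted p = 0.00676), and without PBS of set 1 these changes turned to -0.59 and -1.28.

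Copy 5 was the 3′ repeat of another provirus on chromosome 1 and did not pass the test. This copy, chr1:154650331-154651788 (plus strand, 1458 bp), had 11 and 26 reads in 5-Aza-CdR and Combination, against 28 in PBS, in set 1, and 62, 86 and 16 in 5-Aza-CdR, Combination and Vc, against 7 in PBS, in set 2. Per effective library size, 5-Aza-CdR was 1.13 times PBS (0.508 to 2.34) in set 1 and 9.57 times (4.38 to 24.8) in set 2. Per family read it was below PBS in set 1, with 11 of 11531 reads against 28 of 23131. The log2 change was 1.57 ± 0.90 in 5-Aza-CdR (edgeR adjusted p = 0.185) and 1.76 ± 0.87 in Combination (adjusted p = 0.108). Its 5′ repeat, chr1:154643044-154644474 (1431 bp, 5856 bp away), had 4 and 15 reads, against 0 in PBS, in set 1 and 13, 25 and 6 in 5-Aza-CdR, Combination and Vc, against 0 in PBS, in set 2. It was at least 10.0-fold higher in Combination than in PBS in set 1 and at least 6.16-fold in set 2 (edgeR adjusted p = 0.000825). The 2 ends of this provirus thus differed in PBS, where the 3′ repeat had 35 reads in all and the 5′ repeat had 0.

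Copy 6 and copy 10 rose in both sets and stayed past the threshold under most alternatives. Copy 6, chr13:111473323-111474869 (plus strand, 1547 bp), had 28 and 46 reads in 5-Aza-CdR and Combination, against 2 in PBS, in set 1 and 50, 77 and 2 in 5-Aza-CdR, Combination and Vc, against 1 in PBS, in set 2. Its log2 change was 5.39 ± 1.05 in 5-Aza-CdR (edgeR adjusted p = 4.30e-05) and 5.52 ± 1.05 in Combination (adjusted p = 1.72e-05), past the threshold in 13 and 12 of 15 alternatives.

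Copy 10, chr4:88316262-88317662 (minus strand, 1401 bp), had 19 and 37 reads, against 0 in PBS, in set 1 and 20 and 37, against 0 in PBS and 0 in Vc, in set 2. No PBS or Vc read fell there, and 5-Aza-CdR was at least 18.2-fold higher in set 1 and at least 7.20-fold in set 2. Combination was at least 24.7-fold and 9.11-fold higher. The edgeR adjusted p was 4.30e-05 in 5-Aza-CdR and 1.20e-05 in Combination, past the threshold in 13 of 15 alternatives for each. It had the largest fitted change of the called copies in both comparisons.

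Copies 8, 9, 11 and 12 had fewer reads and less steady calls. Copy 8, chr14:24053109-24054656 (minus strand, 1548 bp), lies 1638 bp from an LTR12C copy of the opposite strand and had 23 and 42 reads in 5-Aza-CdR and Combination, against 1 in PBS, in set 1. In set 2 it had 28, 59 and 10 reads in 5-Aza-CdR, Combination and Vc, against 16 in PBS. It rose in both comparisons (edgeR adjusted p = 0.0390 and 0.0116), by 66.2 times (10.7 to 2727) in 5-Aza-CdR of set 1 and 1.89 times (0.988 to 3.74) in set 2.

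Copy 9, chrX:102361211-102362843 (minus strand, 1633 bp), had 1 and 16 reads, against 0 in PBS, in set 1 and 43 and 56, against 2 in PBS and 0 in Vc, in set 2. Its 5-Aza-CdR library of set 1 was near PBS while its Combination library was not, and it rose in both comparisons (edgeR adjusted p = 0.00902 and 0.000825). Copy 11, chr6:43965653-43967018 (plus strand, 1366 bp), had 13 and 25 reads, against 2 in PBS, in set 1 and 17, 25 and 5 in 5-Aza-CdR, Combination and Vc, against 4 in PBS, in set 2. It rose with edgeR adjusted p of 0.0269 and 0.0126. Copy 12, chr1:151878429-151879859 (plus strand, 1431 bp), had 6 and 12 reads, against 7 in PBS, in set 1 and 23, 35 and 2, against 3 in PBS, in set 2, and did not pass in 5-Aza-CdR (edgeR adjusted p = 0.131) or Combination (adjusted p = 0.0759).

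**Figure D4:**
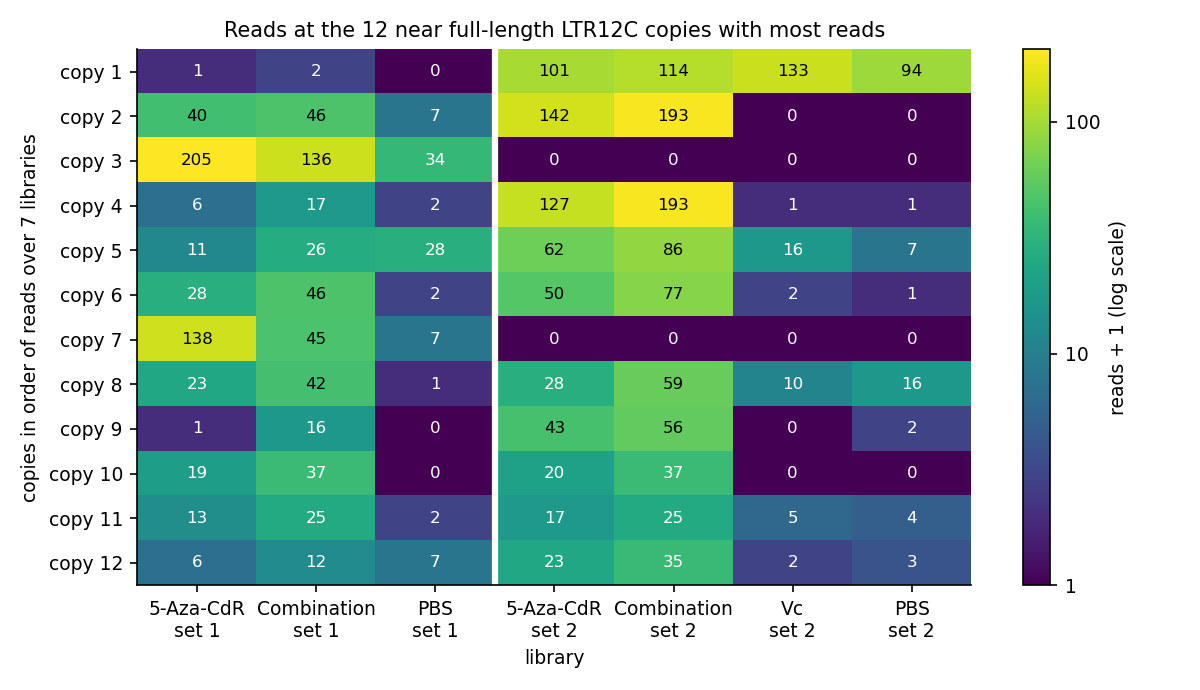
Reads at the 12 near full-length LTR12C copies with most reads (rows, copy 1 to copy 12 in order of reads over 7 libraries) in each library (columns, by set), with the read count in each cell and the colour on a log scale of reads + 1. Copies 3 and 7 have reads in set 1 only, copy 1 is high in every library of set 2, and copies 2, 4, 6 and 10 are higher in 5-Aza-CdR and Combination than in PBS in both sets.

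The other copies with the largest fitted changes among those called had no PBS read in either set, so only bounds are given. On chromosome 12, chr12:8939679-8941264 and chr12:8947139-8948723 are the 5′ and 3′ repeats of 1 provirus on the plus strand, 5874 bp apart. The 5′ repeat had 2 and 8 reads in 5-Aza-CdR and Combination, against 0 in PBS, in set 1 and 24, 41 and 1 in 5-Aza-CdR, Combination and Vc, against 0 in PBS, in set 2. The 3′ repeat had 6 and 7, against 0 in PBS, in set 1 and 19, 32 and 1, against 0 in PBS, in set 2. The repeats of this provirus moved together, at least 8.64-fold and 6.84-fold above PBS in 5-Aza-CdR of set 2 (edgeR adjusted p = 0.00494 and 0.00236). The internal fragments between them had 3 reads in 5-Aza-CdR and 1 in Combination of set 1, then 6 and 7 in those of set 2, against 0 in PBS of either set.

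The remaining named copies of this kind were solitary repeats on the minus strand. Copy chr4:178147903-178149244 had 11 and 27 reads in 5-Aza-CdR and Combination of set 1 and 13, 11 and 2 in 5-Aza-CdR, Combination and Vc of set 2. It was at least 10.6-fold and 4.68-fold higher in 5-Aza-CdR than in PBS in set 1 and set 2 (edgeR adjusted p = 0.00104). Copy chrX:49926754-49928542 had 3 reads in 5-Aza-CdR and 11 in Combination of set 1, then 26, 32 and 1 in 5-Aza-CdR, Combination and Vc of set 2, and rose in Combination (edgeR adjusted p = 0.000989).

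Copy chr6:36330912-36332572 had 11 and 8 reads in 5-Aza-CdR and Combination of set 1 and 13, 27 and 1 in 5-Aza-CdR, Combination and Vc of set 2. Copy chr15:70878531-70880069 had 10 reads in 5-Aza-CdR and 13 in Combination of set 1, then 15 and 19 in those of set 2, and 0 in Vc. Both rose in 5-Aza-CdR (edgeR adjusted p = 0.00159 and 0.00154), by at least 10.6-fold and 9.59-fold in set 1.

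The length extremes had few reads. The longest copy, chr2:124441166-124443947 (2782 bp), had 0 reads in set 1 and 3 and 5 in 5-Aza-CdR and Combination, against 0 in PBS and 0 in Vc, in set 2. The shortest, chr10:26044746-26045949, had 1 read in set 1, in Combination, and 4, 2 and 3 in 5-Aza-CdR, Combination and Vc, against 2 in PBS, in set 2. The next, chr4:6674268-6675474, had 5 and 3 reads, against 2 in PBS, in set 1 and 16, 25 and 5, against 2 in PBS, in set 2, and did not pass the test (edgeR adjusted p = 0.0679 in 5-Aza-CdR and 0.108 in Combination).

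Copies of 1700 bp or more held more reads per base in the drug libraries than those of 1200 to 1299 bp, with no steady rise between them, and part of this lay in single copies. Copies of 1200 to 1299 bp had 371 reads per 1000 kb in 5-Aza-CdR and 559 in Combination, against 53.5 in PBS, in set 1, while copies of 1700 bp or more had 627 and 1089, against 86.7 in PBS. In set 2 the short class had 1094 in 5-Aza-CdR and 1796 in Combination, against 171 in PBS, and the long class 2455 and 4164, against 136 in PBS. Without the 10 copies with most reads the long class fell to 444 and 842 in set 1 and 1366 and 2611 in set 2, which is closer to the short class. Across the 6 length classes 5-Aza-CdR of set 2 had 1094, 1083, 1464, 1777, 1324 and 2455, from short to long. Without those 10 copies its densest class in both sets was 1500 to 1599 bp, at 468 in set 1 and 1547 in set 2.

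**Figure D5:**
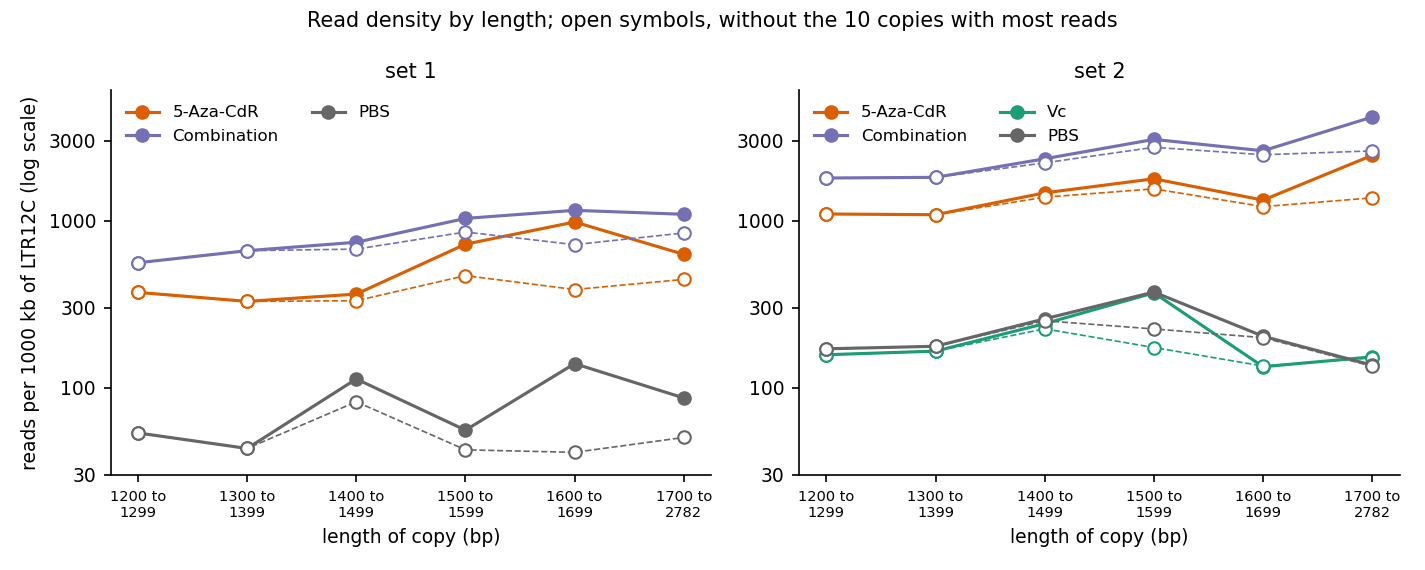
Reads per 1000 kb of near full-length LTR12C (log scale) by length of the copy (bp), by group and set, with all copies (filled symbols, solid lines) and without the 10 copies with most reads (open symbols, dashed lines). 5-Aza-CdR and Combination lie above PBS in every length class of both sets, and the gap between the longest and shortest classes is smaller in 5-Aza-CdR and Combination without those 10 copies.

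Position within a provirus was assigned from HERV9-int annotations within 100 bp on the same strand. By this rule 2154 copies (94.9%) had no internal region beside them and are called solitary here, 51 were 5′ repeats, 64 were 3′ repeats and 1 had an internal region on both sides. In set 2, 5′ repeats had 4.86 reads per copy in 5-Aza-CdR and 8.37 in Combination, against 0.216 in PBS, and 3′ repeats had 5.95 and 9.16, against 0.50 in PBS. Solitary copies had 1.97 and 3.37, against 0.353 in PBS. The proviral copies were thus higher per copy in the drug libraries of set 2, and leaving out the 10 copies with most reads brought 5′ repeats to 2.42 and 4.68 and 3′ repeats to 2.85 and 4.95, against 1.87 and 3.22 for solitary copies. In set 1 without those copies, 3′ repeats (0.532 and 0.774) were no higher than solitary copies (0.544 and 1.05), while 5′ repeats had 0.980 and 1.44. In set 1, 45.1% of 5′ repeats, 37.5% of 3′ repeats and 30.5% of solitary copies had a read in 5-Aza-CdR, and in set 2 the shares were 54.9% of 5′ repeats, 56.2% of 3′ repeats and 55.8% of solitary copies.

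Neighbouring LTR12C copies within 10 kb were on the opposite strand for 62 near full-length copies, on the same strand for 193 and absent for 2015. Inverted neighbours had 0.823 and 1.68 reads per copy in 5-Aza-CdR and Combination, against 0.129 in PBS, in set 1, and 1.97 and 4.47, against 0.371 in PBS, in set 2. Copies with no neighbour had 0.742 and 1.17, against 0.100 in PBS, in set 1, and 1.98 and 3.34, against 0.354 in PBS, in set 2. Copies with a neighbour on the same strand had 0.917 and 1.62, against 0.275 in PBS, in set 1, and 3.99 and 6.55, against 0.347 in PBS, in set 2. Copies with a neighbour on either strand thus had more reads per copy than lone copies in Combination of both sets, and those with a same-strand neighbour had the most in set 2. Without the 10 copies with most reads inverted neighbours had 1.02 reads per copy in Combination of set 1, where same-strand neighbours had 1.10 and lone copies 1.05. In set 2 they had 3.57, where same-strand neighbours had 3.89 and lone copies 3.24. In 5-Aza-CdR inverted neighbours then had fewer reads per copy than lone copies, at 0.459 against 0.549 in set 1 and 1.54 against 1.90 in set 2. Same-strand neighbours had 0.630 and 2.10.

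Copies on both strands and on many chromosomes took part. The 1149 plus-strand copies had 2423 reads in 5-Aza-CdR and 4000 in Combination, against 444 in PBS, in set 2, and the 1121 minus-strand copies had 2458 and 4272, against 360 in PBS. Chromosome 4 held the most copies, 228, with a read at 53.5% of them in 5-Aza-CdR and 68.9% in Combination, against 14.9% in PBS, in set 2. On chromosome 1, with 155 copies, the shares were 59.4% and 76.1%, against 26.5% in PBS, and on chromosome 6, with 207 copies, 46.9% and 60.9%, against 16.4% in PBS.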

How the data were processed

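The data are 7 HCT116 libraries of RNA captured with the J2 antibody. The deposited values used here are raw read counts per repeat family and per annotated copy, whole numbers per the file headers, on hg19 per the submitters' processing notes. Those notes name Bowtie2 and Picard for set 2 alone. Aligner settings, the counter and the handling of reads with several hits are not given in the sources used here. The authors also deposited, for set 1, family counts as a ratio to tRNA reads, from which the tRNA total was taken, per the file headers. The first locus sheet of set 1 has a length column, another value in bp, that matches end minus start in 0.0121% of lines as deposited by the authors, so length was computed from the coordinates.

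Counts of copies listed in both sets were tested with edgeR 4.0.16 (R 4.3.3; TMM scaling, quasi-likelihood test, at least 30 reads over 7 libraries, terms for treatment and set, Benjamini-Hochberg adjusted p over 409 loci), after a check on simulated counts. The set pairs the libraries, since the labels tie each to a workbook: differences between sets correlated across loci at 0.825 between 5-Aza-CdR and Combination, 0.664 between 5-Aza-CdR and PBS and 0.689 between Combination and PBS. Shares carry 95% Wilson intervals and ratios exact binomial ones. The SE of a log2 change was computed back from the edgeR test, as the size of the change over the square root of its F value. The spread in the edgeR fit was pooled over the loci tested, as its prior degrees of freedom were infinite. DESeq2 1.42.0 was an alternative. A copy at 0 reads has a floor of 3 counts per library.

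Copies were named by rule: the 12 with most reads, the 5 largest called changes per comparison with PBS, the 3 with most PBS and the 3 with most Vc reads, and the length extremes. The members and lists were chosen with earlier results of these data known. The 72 copies listed in set 1 only were left out of the comparisons. No sequences are printed.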

Additional observations from a re-analysis of the deposited data

Results flagged for a closer look

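The 72 near full-length LTR12C copies listed in set 1 only, which enter no comparison, had 19 reads in 5-Aza-CdR and 31 in Combination, against 14 in PBS. They stand out because reads appeared outside the copies analysed, above the control per family read: the ratio to PBS was 2.72 (95% interval 1.29 to 5.87, counting error only) in 5-Aza-CdR and 3.58 (1.85 to 7.28) in Combination. The copies analysed had higher ratios in the same libraries, 13.1 (11.5 to 15.0) in 5-Aza-CdR and 17.1 (15.1 to 19.5) in Combination. There is 1 library per group, so these differences have no replicate check within set 1.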

How the results depend on the processing

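No group held 4 libraries, so no library was tested as an outlier within its group. Calls in 5-Aza-CdR against PBS (64) were 10 with DESeq2, 10 with at least 10 reads, 4 with at least 1 read, 0 with no replicate block and 2 to 64 when 1 library was left out. Calls in Combination against PBS (82) were 15, 36, 17 and 0 under the same settings and 0 to 81 when 1 library was left out. Fewer calls at lower read minimums came with 571 and 1925 copies tested. With 1 library left out the copies tested fell to between 33 and 99. RLE scaling (58 and 81), total reads (59 and 74), copies of either workbook (64 and 82) and, chosen after seeing the data, total reads without HERVE_a-int (51 and 74) stayed within 1.5 times. The block changed no call in Combination against 5-Aza-CdR or Vc against PBS, both 0. Leaving out a library gave no call in Vc against PBS. In Combination against 5-Aza-CdR it gave calls at these copies only without PBS of set 1, all lower in Combination, and other loci then had calls too. TMM, RLE and total reads put the median change of all loci at 0.32, 0.11 and 0.13 in 5-Aza-CdR and 0.12, -0.09 and 0.00 in Combination. The near full-length share differed from PBS by -1.28 (5-Aza-CdR) and -2.55 (Combination) percentage points at 1400 bp, and by -0.94 to 1.28 and -0.82 to 1.39 with 1 library left out; the cause was not tested. Set 1 ratios to PBS were 22.4 and 27.8 per locus read and 39.9 and 154 per tRNA read, and Combination over 5-Aza-CdR 3.87 per tRNA read. Lengths of 1000 and 1400 bp kept every ratio within its interval. With at least 3 reads required, 135, 285 and 23 copies (5-Aza-CdR, Combination, PBS) remained in set 1 and 560, 832, 44 and 43 (with Vc before PBS) in set 2; thinning to equal family reads, chosen after seeing the data, left 66.9 in PBS of set 1. Of the alternative values of named copies that were called, 290 kept the call, 188 lost it and 2 reversed; of those not called, 113 stayed so, 5 gained a call and 2 reversed. The reversals were Combination at chr10:74060187-74061778 without the block (-0.051), and at this copy, chr18:9296674-9298314 and chr7:22129778-22131305 without PBS replicate 1. With 1 library left out these spanned -0.22 to 4.79, -0.59 to 3.24 and -1.28 to 4.47.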
